A study of Sus scrofa with 16 samples.

Results

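The apolipoprotein genes APOA1, APOA2, APOA4, APOA5, APOB, APOC3, APOE, APOH, APOM and APOR were examined in pig (Sus scrofa) liver. Array probes were taken as theirs where the gene name, or a symbol in the probe's description, was that of a member. This found 13 of 43603 probes, which cover 8 of the 10 genes, and APOH and APOR had no probe under the rule. APOA1, APOA4, APOA5, APOC3 and APOM had 2 probes each, and APOA2, APOB and APOE had 1 each. By all names in the files and tables, the array held 4662 gene symbols. The set was chosen by its measured differences between the lines, above all that of APOM, so these differences are given below as a description, and no p is given for a member.

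The samples are livers of 8 pigs of the low-RFI line (RFIneg) and 8 pigs of the high-RFI line (RFIpl), each fed ad libitum and weighing 20 kg. RFI is residual feed intake, the feed an animal eats above or below what its growth and maintenance predict, and both lines come from selection on it. As no further line was sampled, selection on intake and any other difference between the lines cannot be told apart. Age and sex of the pigs were not used here. Each pig was hybridised to its own 1-colour Agilent array of 60-base probes, and 4 slides each held 2 low-RFI and 2 high-RFI pigs. A level is a probe's log2 signal minus the 75th percentile of log2 signal on its array, and a change is the low-RFI mean minus the high-RFI mean. Levels of different probes are not compared, because probes differ in brightness.

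Apolipoproteins are the protein parts of the particles that carry lipids in blood. Liver cells build very low density lipoprotein (VLDL) around APOB, a very large protein of which each particle holds a single copy. They also release APOA1 and APOA2, the main proteins of high density lipoprotein (HDL). APOC3 and APOA5 act in opposite directions on the clearance of triglycerides, APOE is a ligand for receptors that take up remnant particles, and APOM carries sphingosine 1-phosphate on HDL. In mammals APOA4 is made mainly by the small intestine, and in mice and rats also by the liver.

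Depth, saturation and array quality were as follows. Over the 16 arrays 28695 to 35126 spots were well above background, and the median SE of a change was 0.16. No non-control spot was saturated on any array, against a saturation value of 779476 to 779520 intensity units. Array noise, the coefficient of variation of replicated probes, was 6.97 ± 0.50% in low-RFI arrays and 8.04 ± 0.66% in high-RFI arrays (SD, n = 8 each). The scanner software marked 0 low-RFI and 5 high-RFI arrays for evaluation. The hepatocyte genes ALB, TF, SERPINA1, TTR and HP were above background on all 16 arrays, as the label liver calls for. So were the fat markers ADIPOQ, LEP and FABP4, 4 endothelial markers and 3 stellate cell markers. Signal above background therefore does not by itself identify the tissue. In whole tissue, fewer cells of a type and less RNA per cell cannot be told apart.

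All 13 apolipoprotein probes were well above background on all 16 arrays, and none had a saturated spot, a saturated pixel or a spot marked as an outlier. The probe closest to the top of the scanner range was APOC3 A_72_P177696, whose highest mean signal was 38.9% of the saturation value. The highest mean signals of the APOA1 probes were 23.2% and 17.8% of that value, and APOA2 reached 17.2%. APOM reached 7.97% and 1.04%, and APOB 1.18%. The members were therefore measured within the scanner's range in every pig.

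Some probe letters show where on a transcript a value was read. They are taken from the deposited files, written 5′ to 3′, with the part of interest in capitals. The probes of APOM lie at opposite ends of its transcript, and the first begins at base 46 of the target record and holds an ATG, in capitals.

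APOM A_72_P499018: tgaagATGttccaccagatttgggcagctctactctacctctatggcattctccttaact

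The other APOM probe begins at base 674. Of it and of the APOA4 and APOA2 probes the last 30 bases are shown, since all 3 hold AATAAA, the letters of the common polyadenylation signal, in capitals.

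APOM A_72_P303029: cttacaagagtAATAAAgataatttgtcaa

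APOA4 A_72_P146996: ctccatactcAATAAAgctgctgagaaact

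APOA2 A_72_P474394: tccttgttttctacAATAAAtattgaaaga

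As written, AATAAA was in 3 of the 13 apolipoprotein probes and in 9.60% of all 43603 probes, and on the other strand it was in 1 of the 13 and in 4.17% of all. The probes of APOA1 overlap by 25 bases, in capitals here, so they are not separate readings of the transcript.

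APOA1 A_72_P035886: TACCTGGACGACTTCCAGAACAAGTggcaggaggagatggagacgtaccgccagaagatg

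The sphingosine carrier APOM had the largest change relative to its SE of the 8 genes, and it was read higher in low-RFI pigs on both of its probes. On A_72_P303029 low-RFI pigs 1 to 8 were at 7.06, 6.62, 7.01, 7.09, 6.80, 6.93, 6.96 and 7.04. High-RFI pigs 1 to 8 were at 6.64, 6.79, 6.82, 6.39, 6.51, 6.74, 6.51 and 6.63. In 6 of 8 low-RFI pigs the level was above that of every high-RFI pig, and low-RFI pigs 2 and 5 were inside the high-RFI range. The lines averaged 6.94 ± 0.16 in low-RFI and 6.63 ± 0.15 in high-RFI pigs (SD, n = 8 each). The change was +0.31 with an SE of 0.095, a 1.24-fold higher signal in low-RFI pigs. Of all 30097 probes tested, 12.7% had a larger change in either direction.

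The APOM probe at the other end of the transcript, A_72_P499018, gave 4.01, 3.70, 4.07, 4.16, 3.88, 3.90, 3.85 and 4.12 in low-RFI pigs 1 to 8. In high-RFI pigs 1 to 8 it gave 3.77, 3.76, 3.76, 3.58, 3.57, 3.21, 3.56 and 3.79. Here 7 of 8 low-RFI pigs were above every high-RFI pig, and low-RFI pig 2 alone made the lines overlap. That pig was the lowest of its line on both probes. The change was +0.34 (SE 0.10), with means of 3.96 ± 0.16 in low-RFI and 3.62 ± 0.20 in high-RFI pigs (SD, n = 8 each). High-RFI pig 6 lay well below the rest of its line at 3.21, and without it the change was +0.28.

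**Figure D1:**
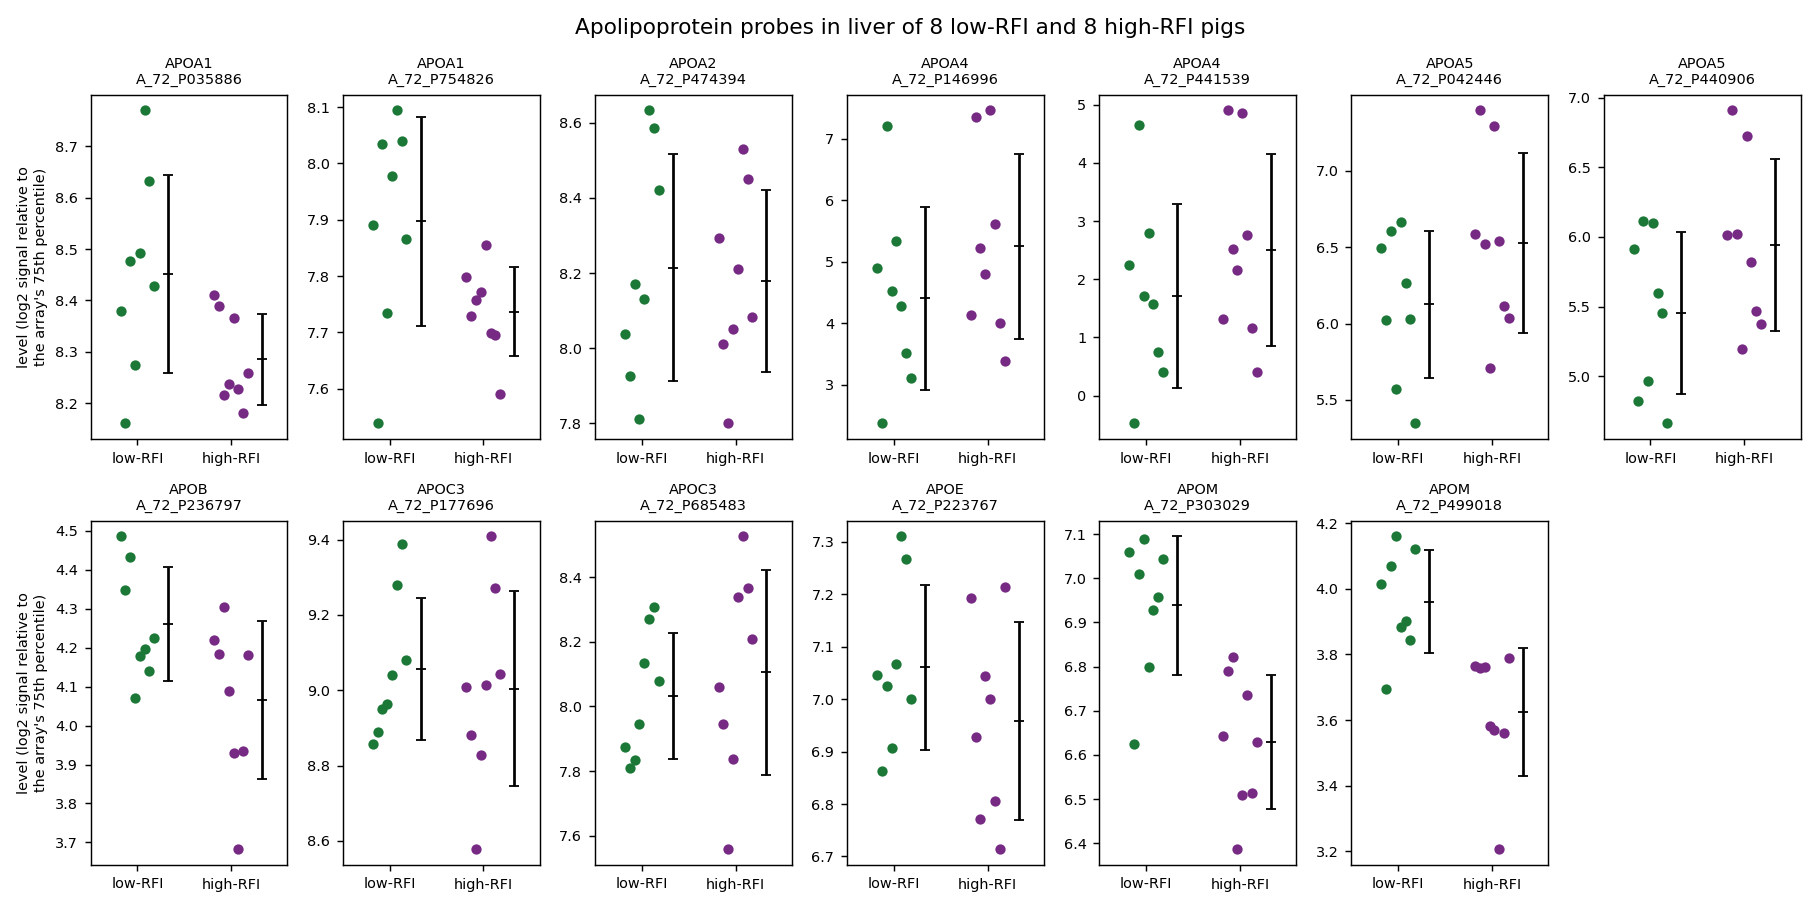
Level of each of the 13 apolipoprotein probes (log2 signal minus the array's 75th percentile, own vertical scale per panel) in 8 low-RFI pigs (green, left) and 8 high-RFI pigs (purple, right), with 1 point per pig and black bars for mean ± SD. The lines overlap on every probe, and on APOM A_72_P499018 the overlap comes from a single low-RFI pig.

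After subtracting each line's mean, the APOM probes followed each other only loosely over the 16 pigs (Pearson r = 0.48, Spearman rho = 0.48). The r was 0.89 among low-RFI pigs and 0.14 among high-RFI pigs. Leaving out high-RFI pig 6 gave 0.84 over the other pigs, while leaving out low-RFI pig 2 gave 0.31, so the figure rests on single animals. The probes of other genes agreed more closely, with r = 0.998 for APOA4, 0.96 for APOA5, 0.95 for APOC3 and 0.85 for the overlapping probes of APOA1.

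The slides allow the APOM change to be read within arrays processed side by side. On A_72_P303029 it was +0.10, +0.28, +0.52 and +0.34 on slides 1 to 4, each from 2 low-RFI and 2 high-RFI pigs. On A_72_P499018 the same slides gave +0.29, +0.28, +0.41 and +0.36. Both probes were thus higher in low-RFI pigs on every slide, and the first varied more between slides. The pigs also fall into runs of sample numbers, 4 of each line in each run. The level of A_72_P303029 averaged 6.95 in low-RFI and 6.66 in high-RFI pigs of the first run, and 6.93 and 6.60 in those of the second. Without the 5 marked high-RFI arrays the change on A_72_P303029 was +0.47, which is over 1.5 times the change with all pigs. This left only high-RFI pigs 4, 5 and 7, which had the lowest levels of their line on this probe, at 6.39, 6.51 and 6.51. On A_72_P499018 the change without the marked arrays was +0.39. With array noise as a covariate the change on A_72_P303029 was +0.37.

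**Figure D2:**
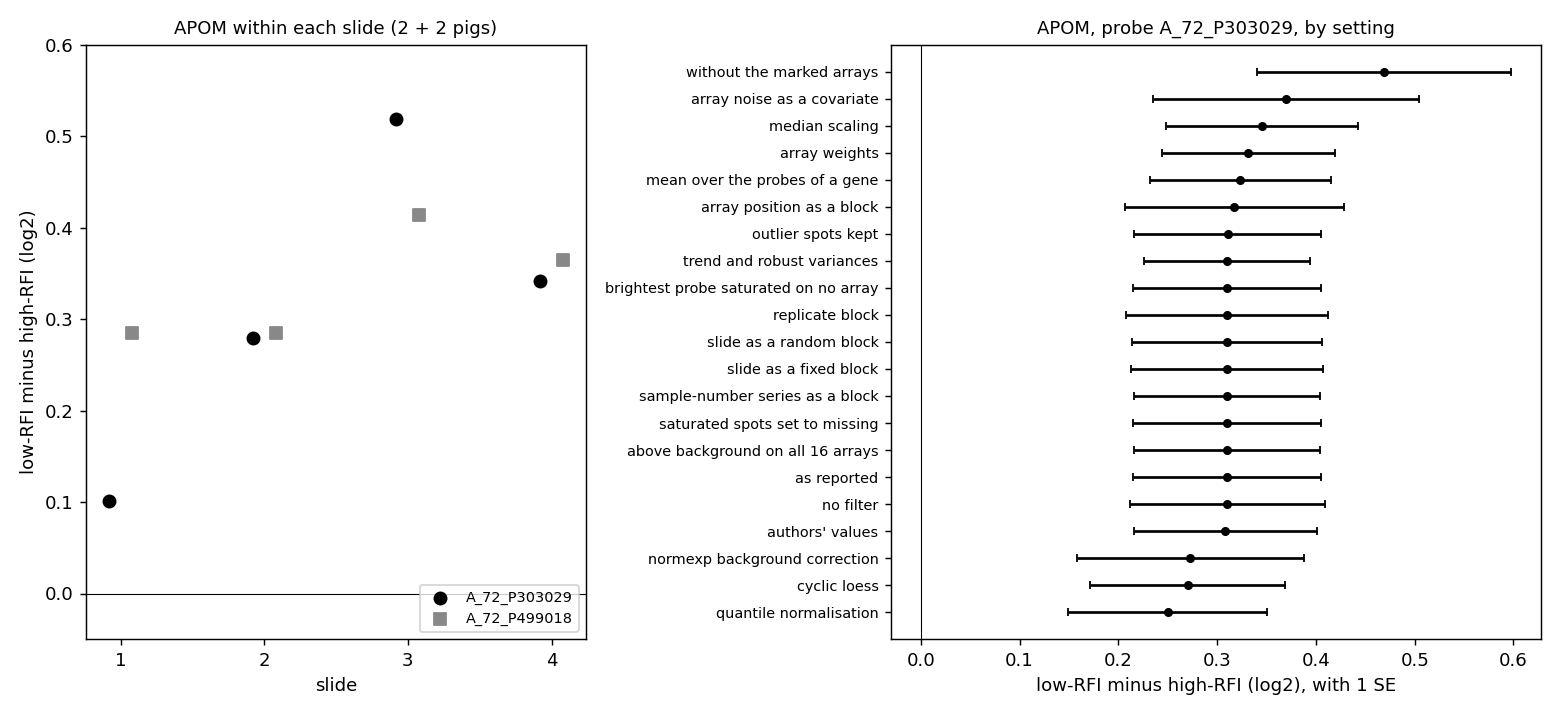
Left, change of both APOM probes (low-RFI minus high-RFI, log2) within each of the 4 slides (2 pigs of either line on a slide). Right, change of A_72_P303029 with 1 SE as reported and under the alternatives to the processing, which run between +0.25 and +0.47, all above 0.

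The HDL proteins APOA1 and APOA2 and the remnant ligand APOE had changes of at most 0.17 in size. APOA1, the structural protein of HDL and activator of the esterifying enzyme LCAT, ranged on A_72_P035886 over 8.16, 8.45 and 8.77 (lowest, median, highest) in low-RFI and over 8.18, 8.25 and 8.41 in high-RFI pigs. Its change was +0.17 (SE 0.093) there and +0.16 (SE 0.091) on the overlapping probe. After another background correction (normexp) these were +0.06 and +0.06, and within slides the first was between +0.06 and +0.41. In 5 of 8 low-RFI pigs the level was above every high-RFI pig, and low-RFI pig 2 was below all of them, so the low-RFI line was spread more widely, with an SD of 0.19 against 0.09. APOE stood at 6.86, 7.04 and 7.31 in low-RFI and 6.71, 6.96 and 7.21 in high-RFI pigs, a change of +0.10 (SE 0.10). It was +0.02 after quantile normalisation or normexp correction, +0.06 after cyclic loess or with array weights, and -0.04 on slide 4 against +0.29 on slide 3. APOA2 stood at 7.81, 8.15 and 8.63 in low-RFI and 7.80, 8.15 and 8.53 in high-RFI pigs. Its change of +0.04 (SE 0.14) had no stable direction, as it was -0.02 after quantile normalisation and -0.01 after cyclic loess.

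APOB, the structural protein of VLDL, was at 4.07, 4.21 and 4.49 in low-RFI pigs and at 3.68, 4.13 and 4.31 in high-RFI pigs. The change was +0.19 (SE 0.10), and 3 of 8 low-RFI pigs were above every high-RFI pig. With array noise as a covariate it was +0.36, with array weights +0.11 and after normexp correction +0.12, and on slide 4 it was -0.09. The level of APOB also followed array noise over the pigs, with r = 0.52 after subtracting line means, and the part of noise in the change was not tested. A further 5 probes are described as APOB without its symbol and so fell outside the rule, of which 3 were tested. Their changes were +0.19 (SE 0.11) for A_72_P443119, +0.16 (SE 0.086) for A_72_P300614 and +0.06 (SE 0.23) for A_72_P244787. The first and second of these followed the APOB probe over the pigs with r = 0.85 and 0.82, and the last with only 0.38.

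The inhibitor of triglyceride clearance APOC3 had changes smaller than their SEs. On A_72_P177696 it was at 8.86, 9.00 and 9.39 in low-RFI pigs and 8.58, 9.01 and 9.41 in high-RFI pigs, a change of +0.05 (SE 0.12), and on A_72_P685483 the change was -0.07 (SE 0.14). The first of these was -0.03 after quantile normalisation and -0.05 after normexp background correction, so no direction can be given. The second was +0.01 with array weights and +0.13 on slide 4. An outside probe described as APOC3, A_72_P647163, changed by -0.13 (SE 0.10) and did not follow A_72_P177696 over the pigs (r = -0.28).

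APOA5, which promotes triglyceride clearance, and APOA4 were read lower in low-RFI pigs, with a spread among pigs larger than the change. On A_72_P042446 APOA5 was at 6.50, 6.02, 6.61, 5.57, 6.66, 6.27, 6.03 and 5.35 in low-RFI pigs 1 to 8. In high-RFI pigs 1 to 8 it was at 6.58, 7.40, 6.52, 5.71, 7.30, 6.54, 6.12 and 6.03. High-RFI pigs 2 and 5 were above every low-RFI pig, and low-RFI pigs 4 and 8 were below every high-RFI pig. The change was -0.40 (SE 0.25), and it was -0.49 (SE 0.28) on A_72_P440906. With array noise as a covariate the change on A_72_P042446 was -0.12, and without high-RFI pig 2 it was -0.27. The direction turned on slide 3, at +0.53 on A_72_P042446 and +0.52 on A_72_P440906, while on the other slides the first of these probes was between -0.82 and -0.54.

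APOA4 varied more between pigs than any other member. On A_72_P146996 low-RFI pigs 1 to 8 were at 4.90, 2.37, 7.20, 4.53, 5.34, 4.28, 3.53 and 3.12. High-RFI pigs 1 to 8 were at 4.14, 7.36, 5.22, 4.80, 7.46, 5.62, 4.01 and 3.39. The pigs thus spanned 5.08 on the log2 scale, a 33.9-fold range, with low-RFI pig 3 and high-RFI pigs 2 and 5 about equally high and all others at 5.62 or below. The residual SD within lines was 1.50, larger than that of 99.5% of all tested probes, and on A_72_P441539 it was 1.62. The change was -0.84 (SE 0.68), and -0.80 (SE 0.73) on the other probe. Leaving out single pigs moved it between -1.24, without low-RFI pig 3, and -0.53, without high-RFI pig 5, and it was -0.54 without high-RFI pig 2 and -0.55 without low-RFI pig 2. On slide 3, which held low-RFI pig 3, it was +1.34.

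The other members were far steadier. The residual SD was 0.14 and 0.15 on the probes of APOA1, 0.15 and 0.18 on those of APOM, 0.17 for APOE and 0.18 for APOB. The median over all tested probes was 0.33. It was 0.23 and 0.26 for APOC3 and 0.27 for APOA2. APOA5 was above the median of all probes, at 0.54 and 0.60.

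Across the apolipoproteins, limma, with p adjusted by Benjamini-Hochberg across all 30097 tested probes, called 0 of the 13 member probes at 0.05, beside 0.00997% of all tested probes, 3 in number and all lower in low-RFI pigs. The members were chosen by this contrast, so nothing is read from their count. The lines were without overlap on 0 of 13 member probes, beside 0.0432% of all tested probes. At an unadjusted p under 0.05 there were 1640 probes among all tested. By sign, 8 member probes were higher and 5 lower in low-RFI pigs, and of the genes, by their brightest probe, 6 were higher and 2 lower. After cyclic loess, quantile normalisation or normexp correction APOA2 and the brighter APOC3 probe turned negative, which left 6 probes higher and 7 lower, and 4 genes higher and 4 lower. The median change over the 8 genes was +0.08, beside 0.00 over all tested probes, where 49.7% were higher. The median of the 8 genes was +0.11 under median scaling and 0.00 under quantile normalisation. After normexp correction it was +0.01, where the median of all tested probes was +0.09.

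**Figure D3:**
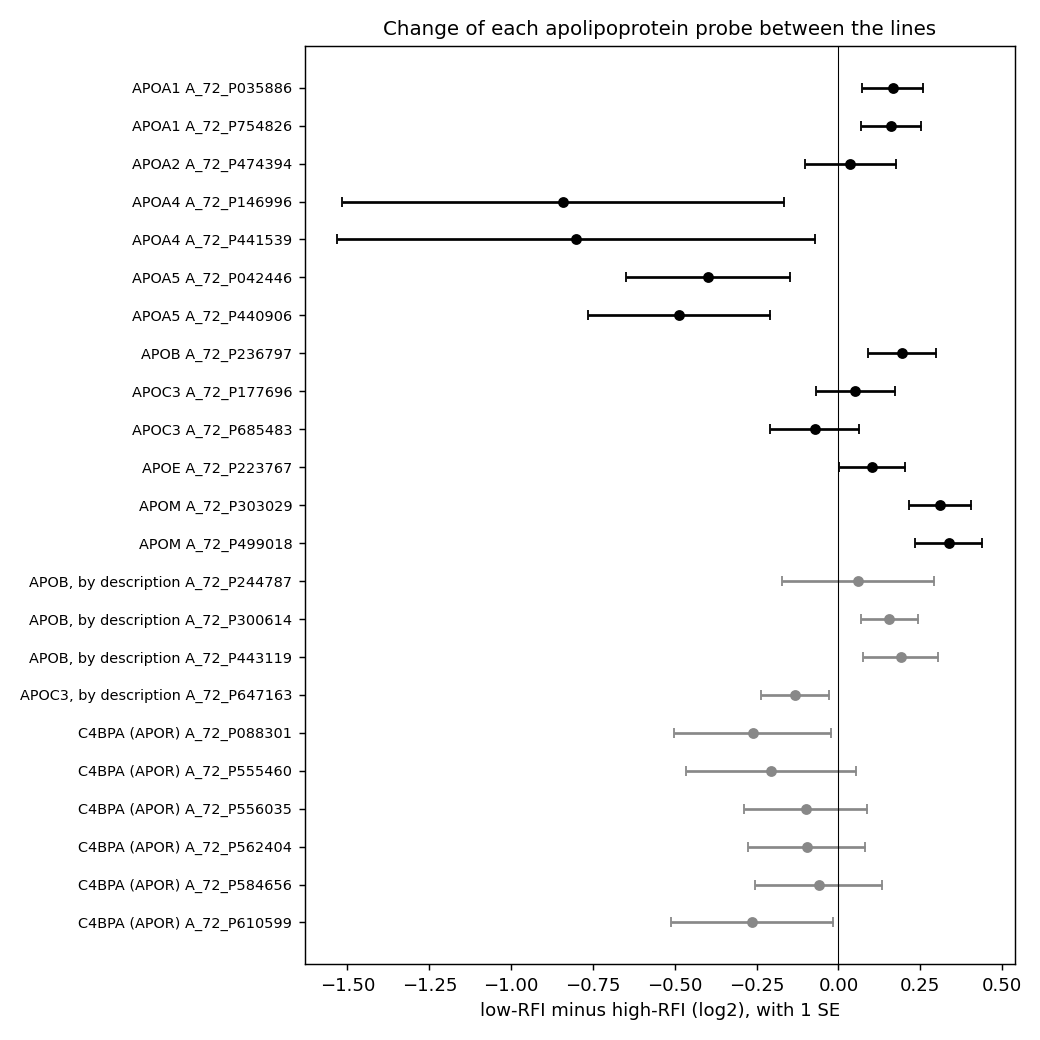
Change between lines (low-RFI minus high-RFI, log2, points with 1 SE as bars) of the 13 apolipoprotein probes (black) and of 10 tested probes outside the rule that are described as APOB, APOC3 or the APOR synonym C4BPA (grey). The APOM probes stand at +0.31 and +0.34, and the widest bars are those of APOA4.

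APOR is a pig plasma protein related to the alpha chain of the complement regulator C4b-binding protein. The RefSeq gene table (assembly Sscrofa11.1) gives APOR as a synonym of a gene it names C4BPA, and 6 probes of that name or accession were tested. The table holds 2 genes named C4BPA, so these probes are not assigned to APOR here. Their changes ran between -0.26 and -0.06, with SEs of 0.18 to 0.26. Over the 16 pigs the 15 pairs among them had r between 0.79 and 0.99. The highest was that of A_72_P088301 with A_72_P610599, which overlap by 25 bases. A_72_P562404, A_72_P556035 and A_72_P584656 begin close together, at bases 325, 349 and 362 of the target record. The probes are thus not all separate readings of the transcript. The remaining outside probes, 2 described as APOB and 1 as APOE, were too dim to be tested.

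Co-variation over the pigs was examined on the brightest probe of each gene, with line means subtracted. All these values come from the same 16 arrays and share their scaling, so r is a description. Only line means were subtracted, so differences between the runs of sample numbers enter r. So does variation shared by pigs of the same number in both lines, as 11 of 16 arrays correlated best with their own number. Pigs 1 to 4 of each line are the first run and pigs 5 to 8 the second. The 28 pairs of members had r between -0.75 and 0.88, with a median of 0.12. The highest was APOA2 with APOC3 (r = 0.88, rho = 0.85), and leaving out single pigs moved it between 0.86 and 0.93. Next came APOA4 with APOA5 (r = 0.76, rho = 0.75), between 0.70 and 0.80 without single pigs. APOA1 with APOE had r = 0.74, being 0.96 among low-RFI and 0.57 among high-RFI pigs. The level of APOC3 followed the runs within each line. In low-RFI pigs it was at 8.86 to 8.96 in the first run and at 9.04 to 9.39 in the second. In high-RFI pigs it was at 8.58 to 9.009 and at 9.014 to 9.41. APOA2 was also mostly higher in the second run, and the part of the runs in its r with APOC3 was not tested.

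In the RefSeq table APOA5, APOA4, APOC3 and APOA1 are adjacent coding genes on chromosome 9, in this order. APOA4 followed its neighbour APOA5, but had r = -0.18 with its other neighbour APOC3. APOC3 had r = 0.38 with its neighbour APOA1, but this was 0.82 among low-RFI and -0.16 among high-RFI pigs. With APOA2, which lies on chromosome 4, APOC3 had r = 0.87 among low-RFI and 0.96 among high-RFI pigs.

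APOB ran against APOC3 (r = -0.75, rho = -0.68), being -0.59 among low-RFI and -0.83 among high-RFI pigs, and between -0.83 and -0.64 without single pigs. Without the 2 pigs farthest from the median of APOB it was -0.55. In the second run of sample numbers, where APOC3 was higher in both lines, APOB was mostly lower. APOB was at 4.07 to 4.49 in low-RFI pigs of the first run and at 4.14 to 4.23 in those of the second. In high-RFI pigs it was at 4.09 to 4.31 and at 3.68 to 4.18. The part of the runs in the r of APOB with APOC3 was not tested. High-RFI pig 6 had the lowest APOB level and the highest APOC3 level of all pigs, and high-RFI pig 3 had the lowest APOC3 level. By r with APOB, APOC3 ranked 3881 of 3907 genes with a name. APOM stood apart from the rest, with r between -0.07 and 0.30 to the other 7 members.

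**Figure D4:**
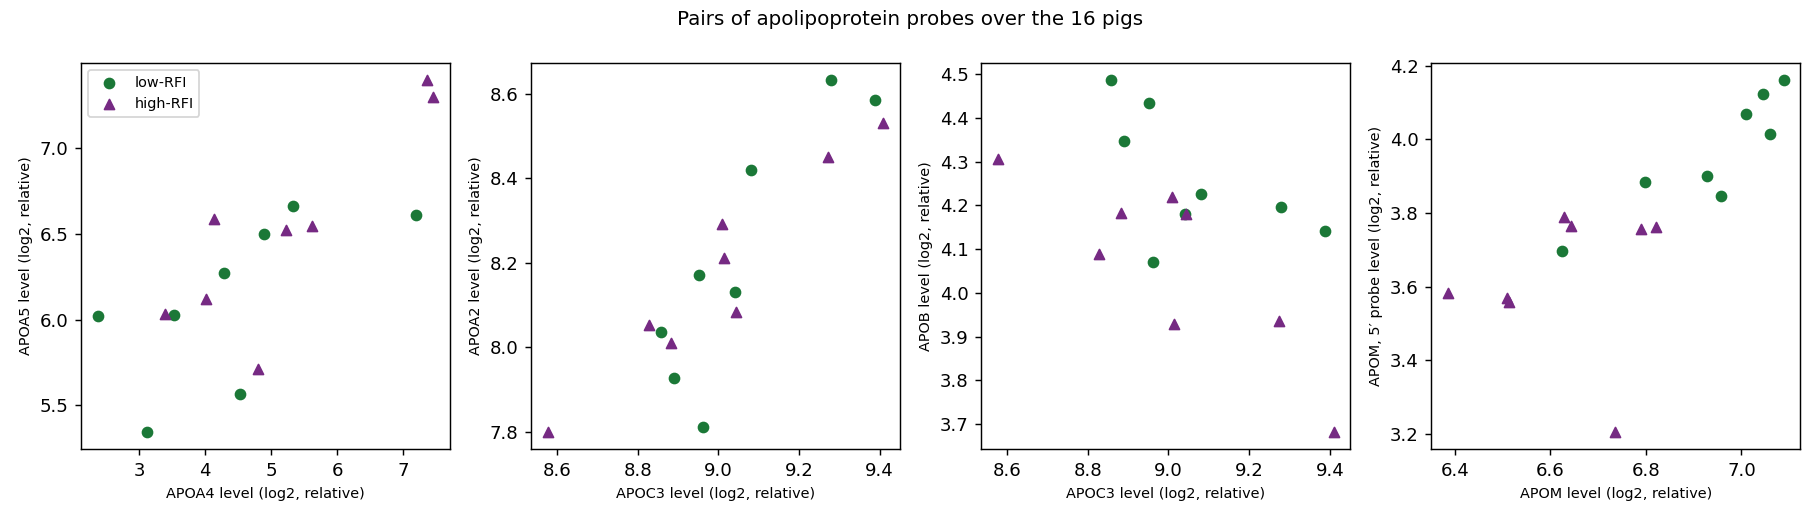
Levels of pairs of probes (log2 signal minus the array's 75th percentile) over 8 low-RFI pigs (green circles) and 8 high-RFI pigs (purple triangles). APOA4 with APOA5 and APOC3 with APOA2 rise together, APOB falls as APOC3 rises, and on the APOM probes high-RFI pig 6 lies apart at 3.21.

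**Figure D5:**
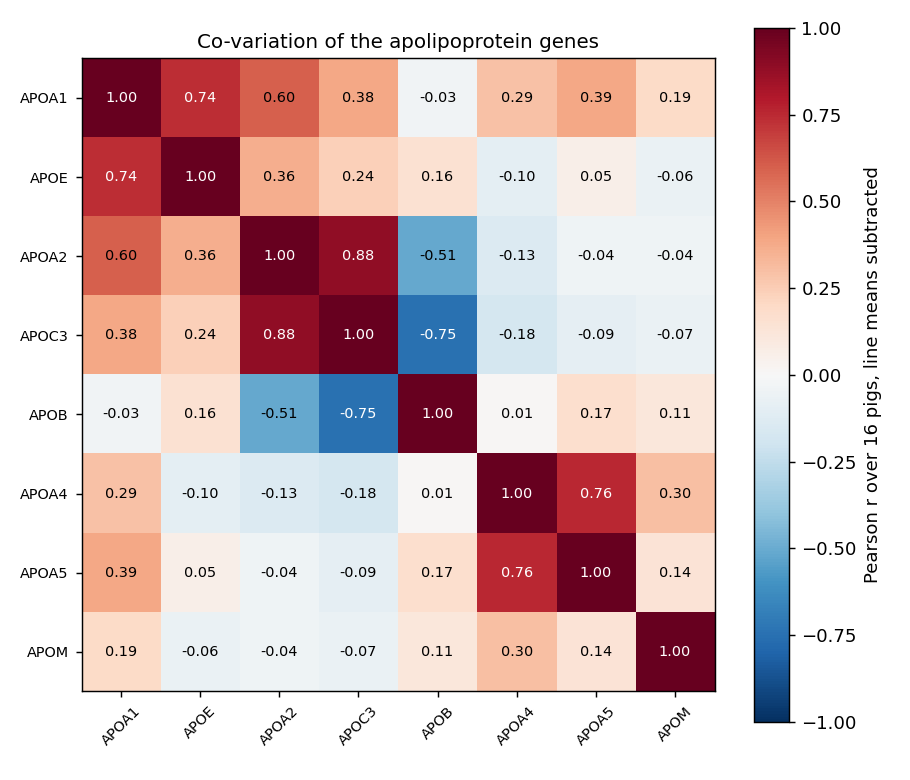
Pearson r between the brightest probes of the 8 apolipoprotein genes over 16 pigs, with line means subtracted (red positive, blue negative). The strongest values are 0.88 for APOA2 with APOC3 and -0.75 for APOB with APOC3, and APOM has no r above 0.30.

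Among 3907 named genes, the gene most like a member over the 16 pigs was found by the same r. For APOA1 it was SCARB1, the HDL receptor (r = 0.80, or 0.56 without the 2 pigs farthest from the median), with APOE in rank 2. For APOA2 it was FTH1, the ferritin heavy chain (r = 0.92), with APOC3 in rank 2. For APOE it was SERPINC1, the liver-made coagulation inhibitor antithrombin (r = 0.87), and for APOC3 CASP10, a caspase (r = 0.96). For APOA4 it was DAPL1 (r = 0.82) and for APOB FAM213A (r = 0.84). The probe named CASP10 was bright, with means of 7.93 in low-RFI and 7.82 in high-RFI pigs, and whether it reads that gene was not tested.

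For APOM the nearest were FRMD5 (r = 0.73), the transcription factor OSR2 (0.68), the actin-depolymerising protein DSTN (0.66), the telomere protein POT1 (0.64) and the carbonyl reductase CBR1 (0.62). OSR2, POT1 and CBR1 lost much of this without the 2 pigs farthest from the median of APOM, at 0.29, 0.31 and 0.15, while FRMD5 was at 0.76 and DSTN at 0.77. The probes of FRMD5 and OSR2 were dim. Their means in low-RFI and high-RFI pigs were -4.59 and -4.40 for FRMD5, and -3.51 and -3.54 for OSR2. None of these 5 shared the higher level in low-RFI pigs beyond its SE, with changes between -0.19 and +0.05.

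Markers of macrophages moved with APOA5. CD163, C1QA and VSIG4, the 3 of 10 macrophage markers on the array, were above background on all 16 arrays. Their mean deviation ran from -0.97 to 0.96 in low-RFI and from -0.45 to 0.75 in high-RFI pigs. It had r = 0.76 with APOA5, 0.48 with APOA4 and -0.13 with APOM, and between lines 1 of the 3 was higher, with 0 called and a median change of -0.13. Their part in the levels of APOA5 was not tested. Hepatocyte markers, 5 of 9 on the array, had positive changes in 5 of 5 with 0 called and a median of +0.06, but in only 2 of 5 after quantile normalisation or normexp correction, and their mean had r = -0.01 with APOM. Of fat, endothelial and stellate cell markers 3, 4 and 3 were tested with 0 called, and r with APOM was 0.43, 0.13 and 0.13. Of 6 intestinal markers 1 was on the array, and it was not above background on enough arrays to be tested.

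The genes around the apolipoproteins were followed through 6 lists with 108 different symbols, of which 53 were tested. In limma 0 were called higher and 0 lower, beside 0.00997% of all tested probes, and the lowest adjusted p was 0.649, with 5 genes at an unadjusted p under 0.05. By sign 27 were higher and 26 lower, with a median change of +0.01, and under the other scalings 25 to 32 were higher.

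Among 9 other apolipoproteins and HDL proteins, 5 were higher and 4 lower, with a median of +0.04. The smallest p was that of PON1, an esterase carried on HDL, with 5.67 ± 0.20 in low-RFI pigs and 5.53 ± 0.28 in high-RFI pigs (SD, n = 8 each), a change of +0.14. Its relative PON3 varied even more than APOA4, from -0.33 to 4.71 in low-RFI and from -0.69 to 4.85 in high-RFI pigs, and had r = -0.31 with APOA4.

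Among 11 genes of lipoprotein assembly and secretion 7 were higher, with a median of +0.04, against 5 after quantile normalisation. SAR1B, the small GTPase of the vesicles that carry large lipoproteins out of the endoplasmic reticulum, had the smallest p. Its level was 4.47 ± 0.30 in low-RFI pigs and 4.10 ± 0.34 in high-RFI pigs (SD, n = 8 each), a change of +0.36 (SE 0.16, adjusted p = 0.893 in limma). All 6 tested genes of lipases and remodelling had a positive change, between +0.04 and +0.25, against 5 of 6 after normexp correction. The smallest p was that of BMP1, a protease that cleaves proAPOA1, at +0.20 (SE 0.11, adjusted p = 0.967 in limma).

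Of 9 receptors and lipid transporters 7 had a negative change, with a median of -0.06, against 5 under median scaling. LRPAP1, a chaperone of this receptor family, and SORT1, the sorting receptor sortilin, were among the genes at an unadjusted p under 0.05 and are named after their values were seen, with changes of +0.32 and -0.29.

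Of 17 regulators of apolipoprotein transcription, 8 had a positive and 9 a negative change. CEBPA, a liver transcription factor, averaged 2.89 ± 0.33 in low-RFI pigs and 3.29 ± 0.16 in high-RFI pigs (SD, n = 8 each), a change of -0.41 (SE 0.13, adjusted p = 0.649 in limma). Within lines CEBPA had the highest r with APOM of all 53 genes (0.54), although its mean was lower and that of APOM higher in low-RFI pigs. HNF4A, a nuclear receptor of liver genes, had the highest r with APOB (0.67).

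APOA4 and APOA5 shared partners in these lists. The lipid droplet protein CIDEB had the highest r with APOA4 (0.74), and the cholesterol-esterifying enzyme LCAT had r = 0.63 with APOA4 and 0.74 with APOA5. The lowest was -0.77, for APOOL with APOA5. Of the genes that make, move or sense sphingosine 1-phosphate, the lipid carried by APOM, 3 of 16 were tested. Their changes were between -0.19, for the lipid phosphatase PLPP2, and +0.11, with r between -0.45 and 0.38 to APOM.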

How the data were processed

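Total RNA of 16 livers was labelled with Cy3 and hybridised to 1-colour arrays. Per the file headers, signals come from Agilent Feature Extraction 10.7.3.1, and the deposited processed signal is an intensity per spot, corrected for background but not scaled between arrays. The mean spot signal and local background, also deposited as intensities, served the normexp alternative and the saturation values. The authors' deposited series table holds log2 values of 27938 spots, which equal log2 processed signal minus a constant per array. The submitters' processing notes name R 2.10.0.

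From the processed signal, log2 values minus each array's 75th percentile were computed, with outlier spots missing and spots of the same probe averaged. Probes well above background on at least 8 of 16 arrays were tested, 30097 in all. Low-RFI minus high-RFI was fitted with limma 3.58.1 in R 4.3.3, adjusted by Benjamini-Hochberg over all tested probes. The fit was tested on simulated data with 50 probes per size, where it recovered 94% and 80% of probes lowered by 2 and 1 on the log2 scale. Of probes raised by 2 and 1 it recovered 100% and 82%. Smaller sizes were not simulated, and every member change was smaller than 1, so recovery at the sizes of the members is not known. The simulated noise was independent between arrays, with no slides or runs. Members, lists and tests were chosen with earlier results of these data known.

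A gene is represented by its brightest tested probe. Named genes are the members, the smallest p of each list, and the gene with the highest r to each member (5 for APOM); some genes this rule names are not reported here. Gene names and order come from the deposited files and the RefSeq table. Replicate numbers were not taken as pairs in the reported fit. Of the 8 pairs, 6 had a correlation of deviations over 0.1. The correlations of the 8 pairs were all positive, from 0.05 to 0.40, and 11 of 16 arrays correlated best with their own number. Pigs of the same number thus tended to vary together. The reported SEs take no account of this. With the replicate number as a block, some SEs fell and others rose. That of APOA5 A_72_P042446 went from 0.250 to 0.157, that of APOA2 from 0.139 to 0.099 and that of APOM A_72_P303029 from 0.095 to 0.102. The alternatives were other scalings, filters, variance models, blocks by slide, position and number, and leaving out pigs. Figures were drawn with matplotlib.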

Additional observations from a re-analysis of the deposited data

Results flagged for a closer look

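On the APOM probe A_72_P499018, high-RFI pig 6 was at 3.21, below the other 7 high-RFI pigs, whose lowest was at 3.56. The gap to the next pig was a larger share of the line's range than Dixon's critical value for 8 samples. Of 26 probe and line groups examined this was the only such case, and chance flags about 1 in 20 groups. On the other APOM probe the same pig was at 6.74, inside the range of its line. Its array had the most spots well above background of all arrays, 35126.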

How the results depend on the processing

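The count of called apolipoprotein probes was 0, and that of called list genes 0, in every alternative run. The APOM change was positive in all. It was 0.47 without the marked arrays, 0.10 within slide 1 and 0.52 within slide 3, and the cause was not tested. It was 0.31 with the replicate number as a block, and this block changed no call among members or list genes. Leaving out each pig gave 0.28 to 0.35. The r of the APOM probes was 0.31 to 0.84 without single pigs, an alternative chosen after seeing the data. Over all probes, 3 calls became 1 with the filter on all 16 arrays, 0 with array noise as a covariate or without the marked arrays, 4 with the replicate block, 7 with array weights, and 5 without low-RFI pig 2 or without high-RFI pig 4. As no spot was saturated, choosing unsaturated probes changed nothing. The number of arrays limits precision, with SEs of 0.091 to 0.73 for the changes of the member probes.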
